A study of Mus musculus with 6 samples.

Results

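The genes described here are the mouse TRIM family, taken as every gene of the deposited count table whose symbol is Trim followed by a number and at most 1 letter, with 1 such gene not reported. That gave 67 genes of the 54532 in the table. The libraries were bulk RNA from cortical astrocytes of mouse pups, grown in primary culture. In the knockout cultures Cre recombinase driven by Gfap regulatory sequence, used for its activity in astrocytes, acted on a floxed Neo1 gene, which encodes the receptor neogenin. The control cultures came from pups labelled only as control, and carry library names that point to the floxed gene without Cre. Each genotype had 3 libraries. Not given in the sources used here are the strain, sex and age of the pups, their litters, and how many pups made up a culture. The p-values therefore measure the spread between these libraries, part of which may be technical.

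TRIM proteins share an N-terminal tripartite motif made of a RING finger, 1 or more B-boxes and a coiled coil. Most are E3 ubiquitin ligases, enzymes that attach ubiquitin to other proteins, and they are sorted into classes by what follows the coiled coil. The largest class ends in a SPRY domain, which binds target proteins, and it holds several genes that interferon induces and that restrict viruses or tune the pathways that sense them. Other classes act on chromatin, on microtubules, in muscle or in neurons.

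Total counts ran from 60819277 to 106081115 per library, and the 67 TRIM genes together had from 135841 to 238793. Values are counts per 1000000 (CPM) scaled by TMM, a method that adjusts library sizes to a common reference, and a mean is given with its SD over 3 libraries. The words rose and fell are kept for genes whose adjusted p was under 0.05 by edgeR's quasi-likelihood test, knockout against control. Neo1 fell from 192 ± 5.2 to 104 ± 2.69 CPM. On the second principal component of all genes (19.6% of the variance) knockout library 2 stood apart from knockout libraries 1 and 3. Of 10 astrocyte markers 2 rose and 6 fell, beside 19.6% and 18.7% of all genes tested, and 0 were at 0 in all libraries. Their summed level was 2756 to 2828 CPM in the control and 2499 to 2630 CPM in the knockout libraries. Within that sum, single markers moved in opposite directions. Higher were Slc1a2 and Aqp4, with log2 fold changes of 1.48 and 0.54. Lower were Fgfr3 (−1.37), Gfap (−1.13), Aldoc (−0.86), Aldh1l1 (−0.41), Slc1a3 (−0.34) and Gja1 (−0.21). Mean Gfap was 946 ± 20.8 CPM in the control and 431 ± 3.85 CPM in the knockout cultures.

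Of the 67 TRIM genes, 53 had enough counts to be tested, and 18 of them rose while 10 fell. Over all 18530 genes tested, 38.3% changed, 19.6% upwards (3627 genes) and 18.7% downwards (3466 genes). Scaled by total counts instead, 2921 genes rose and 4499 fell, and of the TRIM genes 16 rose and 12 fell. The TRIM genes thus had 34.0% that rose against 19.6%, while the share that fell, 18.9%, was near the background. Among the TRIM genes 13 rose by at least 1.5-fold, against 7.47% of all genes, and 0 fell by that much, against 5.42%. The 53 tested genes had a median log2 fold change of 0.04, beside −0.0018 over all genes tested. The 3 control and 3 knockout libraries did not overlap in 30 of the 53, 19 higher and 11 lower in the knockout cultures, beside 49.3% of all genes tested, 24.7% higher and 24.5% lower.

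Of the 18 genes that rose, 10 lay in 1 stretch of chromosome 7, from 104218793 to 104507849 (GRCm38, 289.1 kb), and made up all the TRIM genes there. They were Trim6, Trim34a, Trim5, Trim12a, Trim34b, Trim12c, Trim30b, Trim30c, Trim30a and Trim30d, in that order, with log2 fold changes from 0.83 to 1.77. Outside this cluster 8 of 43 tested members rose (18.6%) and 10 fell (23.3%), with a median of −0.03. The summed level of the 10 cluster genes was 222 ± 4.56 CPM in the control and 508 ± 33.1 CPM in the knockout cultures. The summed level of the 57 other members was 1969 ± 7.54 and 1968 ± 42.0 CPM. In bulk RNA, more cells of a type and more RNA per cell cannot be told apart.

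The promoters of the cluster genes are shown first, because interferon-regulated genes often carry the interferon-stimulated response element, here searched as its core GAAANNGAAA on either strand (TTTCNNTTTC on the other). The windows, from RefSeq on GRCm38.p6, run from 250 bases before to 50 bases after an annotated start, and 52 of the 67 members had 1 or more. Each is written in the direction of transcription, with the matches in capitals. The 5 genes below were chosen because they rose, hold a match and include both the cluster genes most abundant per kb of exon and Trim21, which lies outside the cluster.

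Trim30a (chr7:104465144-104465443, minus strand): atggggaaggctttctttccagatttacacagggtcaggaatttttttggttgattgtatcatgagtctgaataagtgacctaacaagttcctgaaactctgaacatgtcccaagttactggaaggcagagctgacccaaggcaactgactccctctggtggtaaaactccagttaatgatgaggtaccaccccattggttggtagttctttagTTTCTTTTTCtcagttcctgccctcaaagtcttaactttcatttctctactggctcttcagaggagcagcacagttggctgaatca

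Trim30d (chr7:104507800-104508099, minus strand): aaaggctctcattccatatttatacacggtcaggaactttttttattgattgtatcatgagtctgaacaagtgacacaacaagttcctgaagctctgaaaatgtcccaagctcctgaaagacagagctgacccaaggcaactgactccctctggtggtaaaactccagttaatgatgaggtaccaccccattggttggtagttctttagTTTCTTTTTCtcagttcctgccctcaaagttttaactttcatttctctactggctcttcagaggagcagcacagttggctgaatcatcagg

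Trim12c (chr7:104353300-104353599, minus strand): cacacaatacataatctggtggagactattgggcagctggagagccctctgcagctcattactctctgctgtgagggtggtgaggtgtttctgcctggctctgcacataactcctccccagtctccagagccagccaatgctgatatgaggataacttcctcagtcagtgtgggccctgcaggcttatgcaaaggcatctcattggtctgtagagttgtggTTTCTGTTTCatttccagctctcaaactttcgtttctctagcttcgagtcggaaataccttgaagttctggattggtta

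Trim34a (chr7:104244207-104244506, plus strand): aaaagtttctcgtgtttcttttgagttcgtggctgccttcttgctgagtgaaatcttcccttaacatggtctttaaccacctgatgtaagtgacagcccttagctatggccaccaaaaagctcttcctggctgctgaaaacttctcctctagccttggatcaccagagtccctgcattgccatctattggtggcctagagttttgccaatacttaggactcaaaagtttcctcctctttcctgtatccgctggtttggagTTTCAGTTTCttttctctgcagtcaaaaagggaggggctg

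Trim21 (chr7:102565433-102565732, minus strand): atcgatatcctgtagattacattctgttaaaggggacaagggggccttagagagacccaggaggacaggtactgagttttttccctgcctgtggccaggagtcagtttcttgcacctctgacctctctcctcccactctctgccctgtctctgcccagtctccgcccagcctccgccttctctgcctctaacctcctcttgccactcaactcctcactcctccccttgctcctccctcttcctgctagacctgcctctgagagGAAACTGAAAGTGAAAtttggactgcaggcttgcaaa

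A match was present in 1079 of all 27025 genes with a window (3.99%) and in 9 of the 52 TRIM genes (17.3%). By outcome, 8 of the 15 members that rose and had a window held one, 0 of 6 that fell, and 1 of 20 that were tested and not called. No window was available for Trim14, Trim33 and Trim65, which rose, or for Trim8, Trim11, Trim16 and Trim35, which fell. In the cluster 6 of 10 genes held a match: Trim5, Trim12a, Trim12c, Trim30a, Trim30d and Trim34a. No match lay in the windows of Trim6, Trim30b, Trim30c and Trim34b, which rose too. The Trim30b window, 104358597 to 104358896, lies inside that minus-strand gene as annotated here, 104355382 to 104369884. The sequence before its end at 104369884 was therefore not searched. Counting the annotated start as 0, the matches of Trim30a, Trim30d and Trim12c began at −36, −41 and −29 in the windows shown, and those of Trim34a and Trim12a at 10. Trim21 had 2 overlapping matches that began at 13 and 19, and Trim26 had 2 that began at −160 and −154. These windows are not independent of each other, since those of Trim30a and Trim30d are identical at 276 of 300 bases and those of Trim12c and Trim5 at 263. The other interferon-response motif searched, TTCNNNGAA, which reads the same on both strands, was in the windows of 1 of the 15 genes that rose, Trim30c, and in 9.55% of all genes with a window. No member held both motifs. A match describes letters in a window and was not tested as a binding site.

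**Figure D1:**
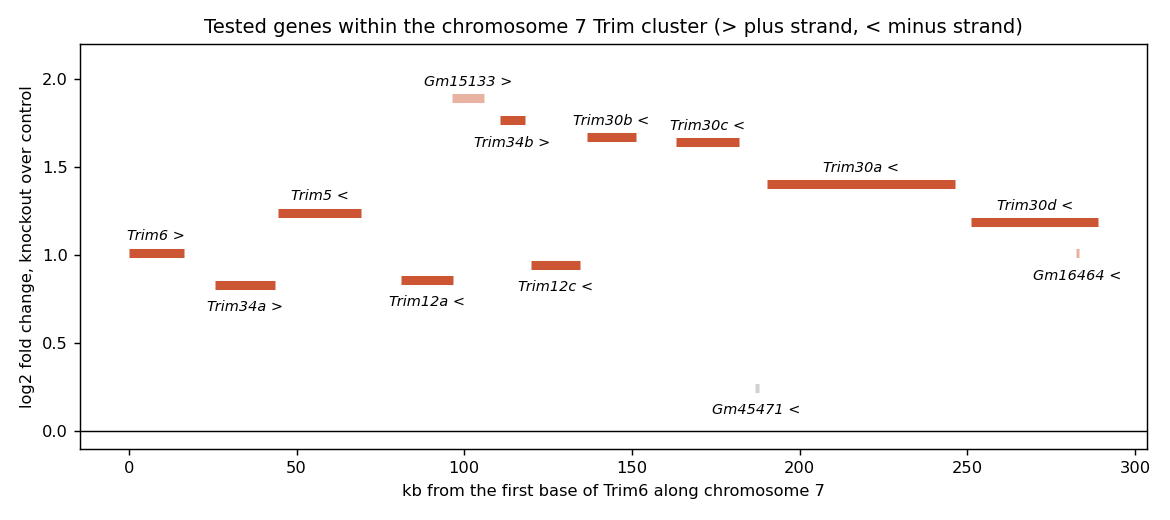
Log2 fold change of each tested gene in the chromosome 7 cluster (vertical axis) against its position in kb from the first base of Trim6 (horizontal axis). Bars span the gene, dark bars are TRIM members, pale bars are other genes, and the grey bar (Gm45471) was not called. All 10 TRIM genes lie between 0.83 and 1.77.

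Trim30a (ENSMUSG00000030921, chromosome 7, 104409025 to 104465193) encodes a regulator that limits Toll-like receptor signalling to NF-kB. It was at 83.8, 81.2 and 81.4 CPM in control libraries 1, 2 and 3, and at 208, 233 and 211 CPM in knockout libraries 1, 2 and 3. Every knockout library lay above every control library. The fold was 2.64, or 1.40 in log2 with an SE of 0.05 (adjusted p = 6.1e-13, Benjamini-Hochberg, edgeR). Per kb of exon, its mean level rose from 19.98 ± 0.356 to 52.8 ± 3.42 CPM per kb. By mean it moved from the seventh to the third most abundant member of the family. Neither place is resolved, since Trim56 was at 19.65 ± 1.81 in the control and Trim47 at 49.0 ± 5.81 in the knockout cultures.

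Its neighbours of the Trim30 group rose too, from lower levels. Trim30d stood at 55.6, 61.0 and 64.8 CPM in the control and 132, 149 and 132 CPM in the knockout libraries (log2 fold change 1.19, SE 0.06, adjusted p = 1.1e-10). Trim30c was at 1.14, 1.96 and 1.49 CPM in the control and 3.71, 5.74 and 4.94 CPM in the knockout libraries (log2 fold change 1.64, SE 0.22). Trim30b was near the limit of what was counted. Its values were 0.498, 0.247 and 0.508 CPM in the control and 0.911, 1.86 and 1.26 CPM in the knockout libraries (log2 fold change 1.67, SE 0.40, adjusted p = 0.0027). For each of these 3 genes the groups did not overlap, and knockout library 2 was the highest of the 6.

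The Trim12 and Trim5 genes belong to the group related to the retrovirus restriction factor TRIM5 of primates. Trim12c was at 34.2, 34.0 and 36.2 CPM in the control and 62.8, 73.1 and 65.4 CPM in the knockout libraries (log2 fold change 0.95, SE 0.06, adjusted p = 2.4e-09). Trim12a was at 23.7, 21.6 and 22.7 CPM in the control and 41.3, 41.9 and 40.2 CPM in the knockout libraries (log2 fold change 0.86, SE 0.06). The less abundant Trim5 was at 2.06, 2.55 and 2.98 CPM and 6.13, 6.78 and 5.17 CPM (log2 fold change 1.24, SE 0.17). The groups did not overlap for any of them. Reads may be shared among them, since 66.8% of the longest Trim5 transcript aligned to Trim12c at 95% identity, and Trim12c aligned to Trim12a at 96.0% over 967 bases. With the counts of Trim12a, Trim12c and Trim5 summed, the log2 fold change was 0.93.

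Trim34a and Trim34b, counterparts of an interferon-responsive human gene, are harder to tell apart. The whole longest transcript of Trim34b aligned to Trim34a at 98.7% identity over 1827 bases. Trim34a was at 14.5, 16.1 and 14.4 CPM in the control and 25, 27.5 and 27.6 CPM in the knockout libraries (log2 fold change 0.83, SE 0.08, adjusted p = 2.0e-07). Trim34b had few reads, with counts of 7, 14 and 36 in the 3 control and of 104, 58 and 28 in the 3 knockout libraries. In CPM it ran from 0.113 to 0.332 in the control and from 0.383 to 1.09 in the knockout libraries, without overlap. The error of its log2 fold change was the widest of the cluster (1.77, SE 0.55, adjusted p = 0.016). It was not called without control library 1, without control library 2 or without knockout library 1 (adjusted p = 0.067, 0.052 and 0.13). Summed, the pair had a log2 fold change of 0.85.

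Trim6, which builds ubiquitin chains that activate the interferon kinase IKK-epsilon, begins the cluster. It was at 2.96, 2.32 and 2.71 CPM in the control and 5.15, 6.10 and 4.91 CPM in the knockout libraries, again without overlap (log2 fold change 1.01, SE 0.17, adjusted p = 9.0e-05). The interval holds 8 other annotated genes, most of them within or overlapping a TRIM gene, of which 3 were tested. The antisense gene Gm15133, which overlaps Trim12a, rose from 0.256 ± 0.0461 to 0.950 ± 0.746 CPM, and the pseudogene Gm16464, which lies within Trim30d, from 1.10 ± 0.459 to 2.23 ± 0.313 CPM. The pseudogene Gm45471 was not called, at 0.409 ± 0.128 and 0.478 ± 0.350 CPM. When the interval was widened by 1 Mb on either side, 13 genes outside the family were tested, of which 2, the same pair, rose and 3 fell.

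**Figure D2:**
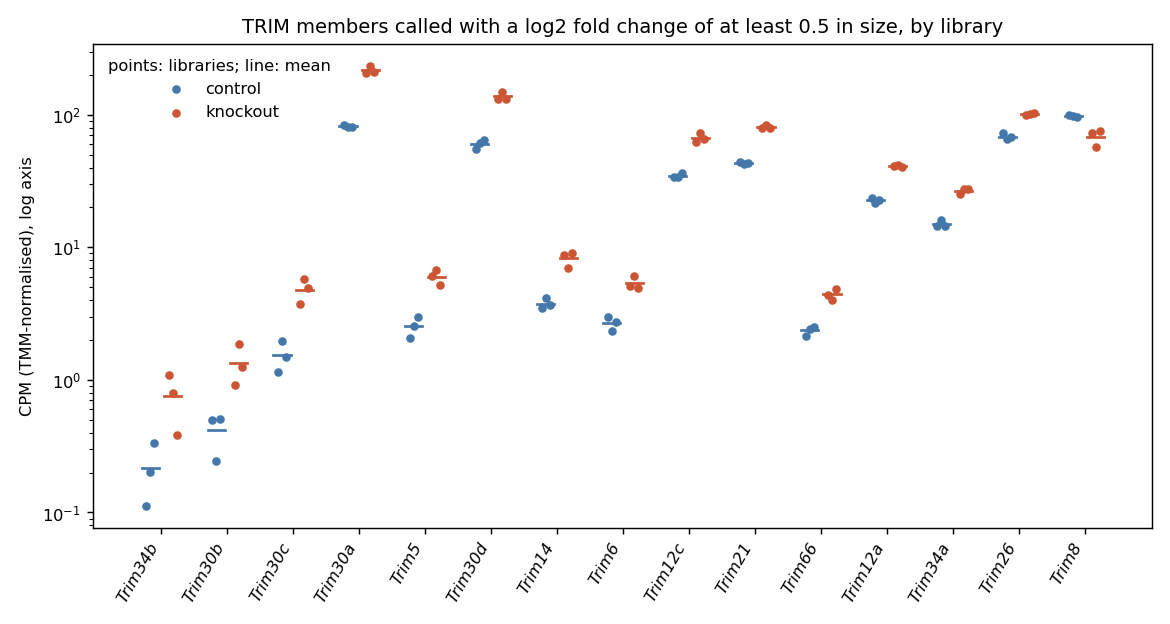
Level of each called member with a log2 fold change of at least 0.5 in size, in TMM-normalised CPM on a log axis. Points are libraries (3 control, 3 knockout) and lines are group means, and in each of the 15 genes the groups do not overlap, with Trim8 the only one that is lower in the knockout cultures.

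Of 27 SPRY-class members outside the cluster, 21 were tested, 4 rose (19.0%, beside 19.6% of all genes) and 6 fell (28.6%, beside 18.7%). The COS-domain class with SPRY is not counted here and is described below. Trim21, a cytosolic antibody receptor that targets antibody-bound virus for degradation, was at 44.0, 42.4 and 43.0 CPM in the control and 79.6, 83.5 and 79.2 CPM in the knockout libraries. The groups were far apart relative to their spread (log2 fold change 0.91, SE 0.05, adjusted p = 3.0e-10). Trim21 lies on chromosome 7 (102557921 to 102565486) but outside the cluster. Trim68, the next member along the chromosome, was at 4.48 ± 0.103 and 4.51 ± 0.797 CPM and was not called.

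Trim14, an adaptor without a RING that acts with MAVS at mitochondria, was at 3.47, 4.13 and 3.70 CPM in the control and 8.80, 6.94 and 9.03 CPM in the knockout libraries (log2 fold change 1.13, SE 0.14, adjusted p = 5.7e-06). The groups did not overlap. Its exons share 1356 bases (31.3%) with Nans on the opposite strand, and how strand was handled in counting is not stated. Nans itself was not called, at 55.1 ± 2.67 and 51.8 ± 2.52 CPM. Trim26, a ligase of the histocompatibility region on chromosome 17 that is reported to act on IRF3, was at 72.5, 65.1 and 67.7 CPM in the control and 99.7, 101 and 103 CPM in the knockout libraries (log2 fold change 0.56, SE 0.05, adjusted p = 1.5e-07). Trim65, a ligase of the RNA sensor MDA5, was at 4.05 ± 0.307 and 5.49 ± 0.982 CPM with overlapping groups. Its call (log2 fold change 0.44, adjusted p = 0.038) was lost under 7 of 13 alternatives, among them without any 1 of the 3 control libraries or without knockout library 1 or 3 (adjusted p = 0.056 to 0.15).

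The 6 members of this SPRY class that fell did so by less. Trim16, which acts in the clearance of damaged lysosomes, fell from 42.6 ± 1.57 to 31.1 ± 0.383 CPM (log2 fold change −0.45) and Trim11 from 33.5 ± 2.1 to 26.3 ± 1.48 CPM (−0.35). Trim41, Trim47, Trim27 and Trim35 had log2 fold changes of −0.27, −0.23, −0.18 and −0.11, with adjusted p-values of 0.038, 0.026, 0.039 and 0.045. Each of these 4 calls was lost when certain single libraries were left out. That of Trim47 was lost without control library 1 or 2 (adjusted p = 0.080 and 0.089). Trim41 was lost without any library but knockout library 3 (0.064 to 0.13), and its log2 fold change was −0.15 without knockout library 2, its lowest. Trim27 was lost without any library but knockout library 1 (0.057 to 0.20), and Trim35 without any but control library 3 (0.059 to 0.13). Trim47 and Trim65 share 225 exon bases on the same strand and moved in opposite directions. The 11 others tested were not called. Trim39, Trim62 and Trim7 were at 20.6 ± 1.46, 9.03 ± 0.534 and 4.32 ± 0.431 CPM in the control and at 21.1 ± 0.526, 9.08 ± 1.54 and 4.44 ± 0.469 CPM in the knockout cultures. Trim10, Trim15, Trim17, Trim38, Trim43a, Trim69 and Trim75 were under 1.3 CPM in every library, and were not called.

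The members known as interferon-induced or linked to interferon were listed as a group of 14, made of the cluster genes other than Trim6 with Trim14, Trim21, Trim26, Trim38 and Trim56. Of these 12 rose (85.7%, beside 19.6% of all genes tested) and 0 fell (beside 18.7%), with a median log2 fold change of 1.04. The other 39 tested members had 6 higher (15.4%) and 10 lower (25.6%), beside the same 19.6% and 18.7%, with a median of −0.03. These 39 include Trim6 and Trim65, described above with IKK-epsilon and MDA5, which rose, so the split depends on how the list was drawn. The list was drawn up with these results known, so its direction is no independent evidence. Its 2 uncalled members were Trim38 and Trim56. Trim38 had a mean of 0.158 CPM in the control and 0.0896 CPM in the knockout cultures, and its interval of −2.81 to 1.21 leaves its direction unresolved. Trim56, a ligase that acts on the STING pathway, was abundant. Its values were 175, 171 and 202 CPM in the control and 193, 193 and 192.5 CPM in the knockout libraries, so the groups overlapped, and the interval of its log2 fold change ran from −0.04 to 0.20. Without control library 3, its highest control, its log2 fold change was 0.15 (adjusted p = 0.0091).

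**Figure D3:**
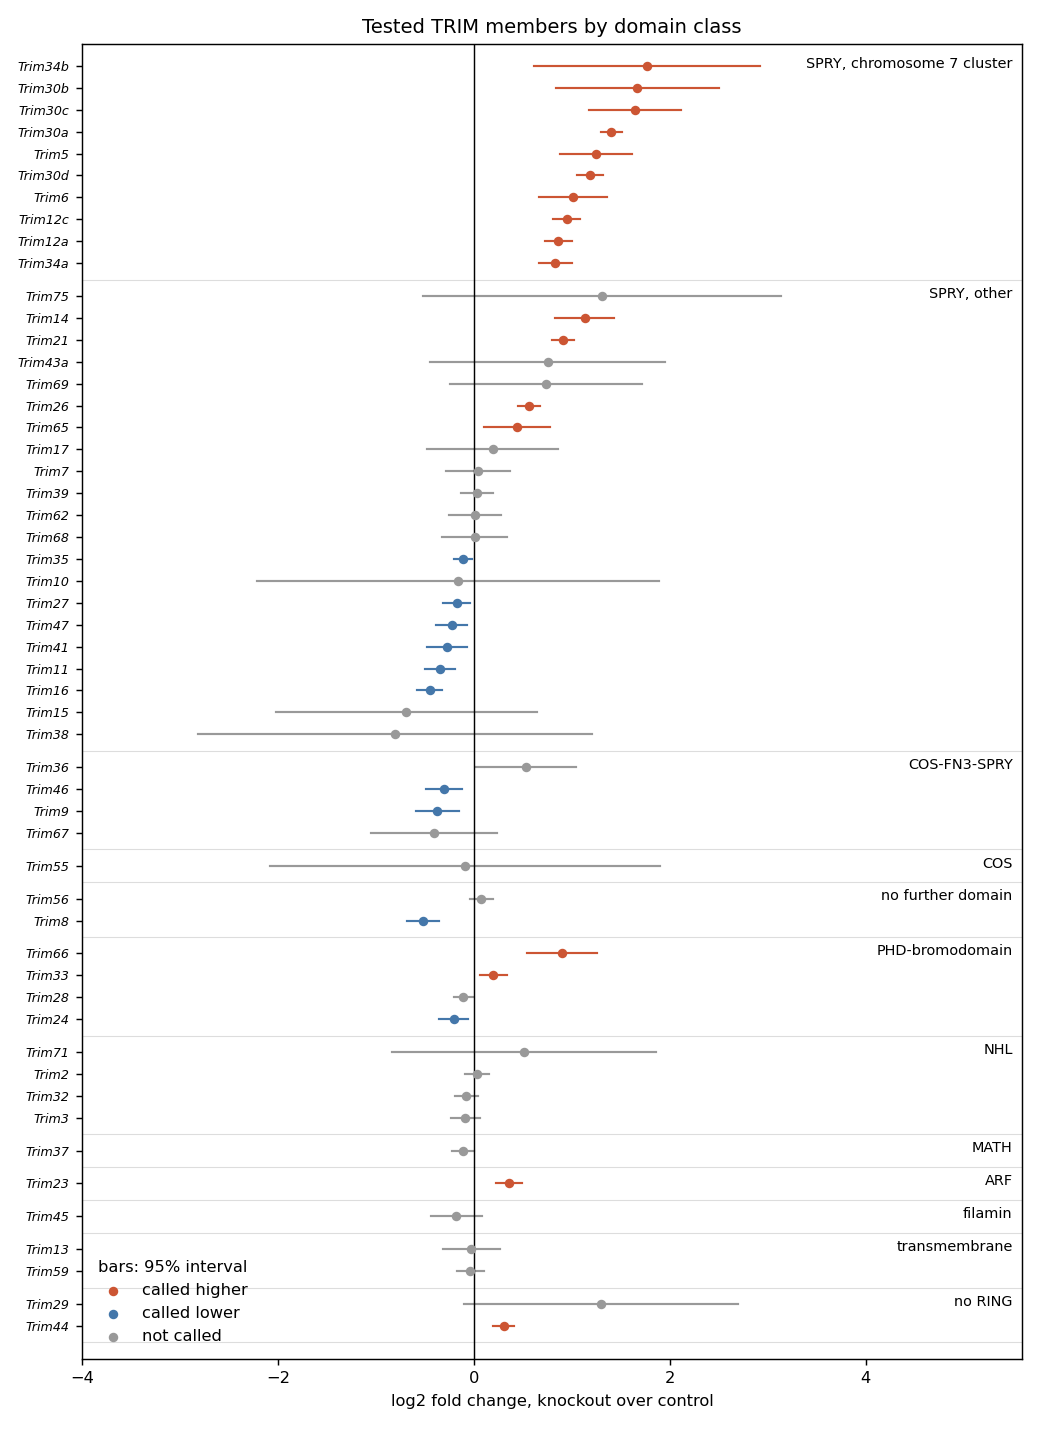
Log2 fold change (horizontal axis) of the 53 tested members with its 95% interval, grouped by the domain that follows the tripartite motif. Colours give the call, and all 10 genes of the chromosome 7 cluster were called higher.

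In the class without a further named domain, Trim8, which relieves SOCS1 inhibition of cytokine signalling and promotes NF-kB activation, had the largest fall of the called members. It was at 99.6, 98.5 and 96.0 CPM in the control and at 72.2, 57.6 and 74.9 CPM in the knockout libraries, with knockout library 2 the lowest. The difference of −0.52 in log2 (SE 0.08, adjusted p = 7.4e-05) ran from −0.59 to −0.41 over 13 alternatives.

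The COS-domain class with SPRY binds microtubules, and it includes Trim9, a neuronal ligase known to bind the netrin receptor DCC, a relative of neogenin. Trim9 was at 11, 11.3 and 10.3 CPM in the control and 8.13, 8.98 and 8.10 CPM in the knockout libraries (log2 fold change −0.37, SE 0.11, adjusted p = 0.0093). The groups did not overlap. Trim46, which organises axonal microtubules, fell from 23.0 ± 1.57 to 18.6 ± 1.90 CPM (−0.30), a call lost without control library 1 (adjusted p = 0.071). Trim36 was at 1.39 ± 0.217 and 2.02 ± 0.248 CPM, and Trim67, the paralogue of Trim9, at 1.32 ± 0.394 and 1.00 ± 0.0810 CPM. Neither was called (adjusted p = 0.094 and 0.33).

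Of the chromatin class with a PHD finger and a bromodomain, Trim66 and Trim33 rose and Trim24 fell. Trim66 was at 2.15, 2.44 and 2.51 CPM in the control and 4.38, 4.0 and 4.87 CPM in the knockout libraries, with no overlap (log2 fold change 0.90, SE 0.17, adjusted p = 3.9e-04). Trim33, which ubiquitinates SMAD4, and Trim24, a nuclear receptor cofactor, differed by less, with log2 fold changes of 0.20 and −0.21. Both calls were lost without control library 1 (adjusted p = 0.14 for each). Trim33 was also lost without control library 2 or knockout library 3 (0.092 and 0.12) and under total-count scaling (0.11), and Trim24 without knockout library 1 or 2 (0.090 and 0.050). Trim28, the corepressor recruited by KRAB zinc finger proteins, was the most abundant member per length in the control, at 60.8 ± 2.19 CPM per kb. It was at 259.5, 257 and 242 CPM in the control and 236, 225 and 243 CPM in the knockout libraries. The groups overlapped, and the difference of −0.11 in log2 was not called (adjusted p = 0.071), though it passed under total-count scaling (adjusted p = 0.006) and without control library 3 (adjusted p = 0.019).

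Trim23, which carries an ARF GTPase domain, was at 32.3, 33.1 and 34.9 CPM in the control and 42.1, 41.7 and 45.2 CPM in the knockout libraries (log2 fold change 0.36, SE 0.06, adjusted p = 1.7e-04). Trim44, which has no RING, was at 167, 163 and 180.5 CPM in the control and 202, 221 and 207 CPM in the knockout libraries (log2 fold change 0.30, SE 0.05, adjusted p = 1.1e-04). Neither gene's groups overlapped. Trim29, grouped with Trim44 as a member without a RING, was at 0.283 ± 0.253 and 0.698 ± 0.404 CPM and was not called (adjusted p = 0.14), but it was without control library 2 (adjusted p = 0.042).

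The 4 members with NHL repeats, which bind RNA or protein, were tested and 0 were called. The abundant ones had narrow intervals. The log2 fold change of Trim2, which ubiquitinates neurofilament light chain, lay between −0.09 and 0.15, that of Trim32 between −0.19 and 0.04, and that of Trim3 between −0.24 and 0.06. Trim71 was at 0.315 ± 0.255 and 0.449 ± 0.228 CPM. Trim37 (MATH domain), Trim45 (filamin repeat), the membrane-anchored Trim13 and Trim59, and the muscle-associated Trim55 were not called either. Trim59 was at 60.1 ± 3.92 and 58.8 ± 4.40 CPM, Trim13, which sits in the endoplasmic reticulum membrane, at 8.04 ± 0.411 and 7.90 ± 1.63 CPM, and Trim45 at 12.4 ± 2.08 and 10.9 ± 1.03 CPM. Trim37 was lower in all 3 knockout than in all 3 control libraries, at 68.5 ± 2.21 and 63.4 ± 1.07 CPM (adjusted p = 0.10).

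The 14 members that were not tested had from 0 to 70 counts over all 6 libraries together. Trim63 and Trim54, muscle ring finger genes, had 70 and 54, Trim43c had 66, and Trim72, a membrane repair gene of muscle, had 55. Trim43b, Trim60, Trim50, Trim80, Trim42, Trim61, Trim58, Trim31 and Trim40 had 2 to 34, and Trim52 had 0.

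**Figure D4:**
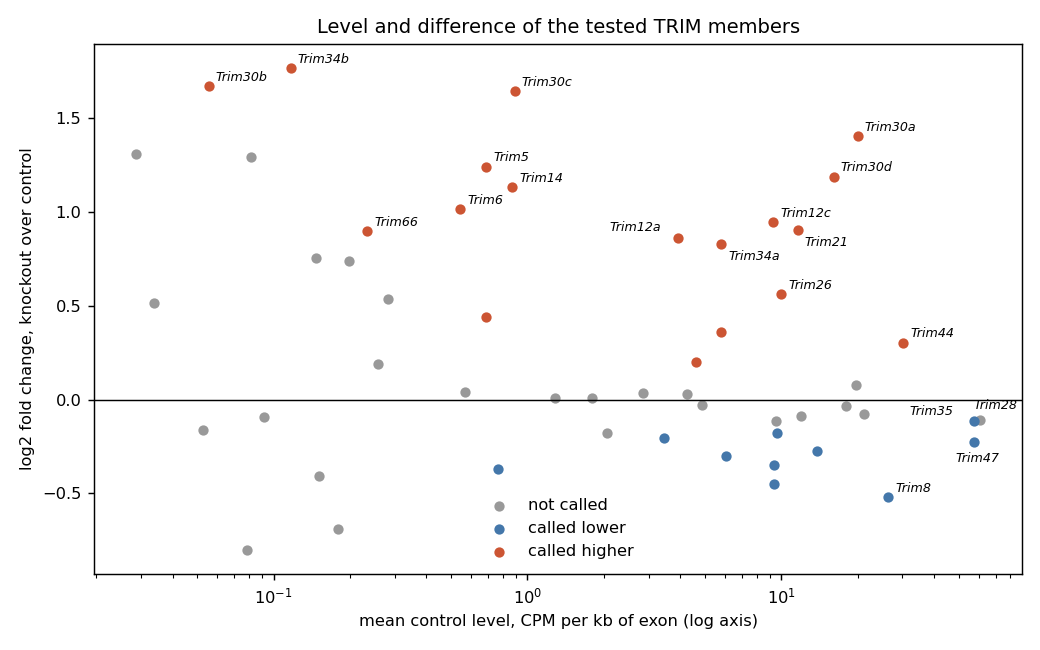
Log2 fold change of the 53 tested members (vertical axis) against their mean control level in CPM per kb of exon (horizontal log axis), coloured by call. Trim28, Trim35 and Trim47 are the most abundant at 57.4 to 60.8 CPM per kb and differ by 0.23 or less, and Trim30a at 19.98 CPM per kb has the largest rise among members above 1 CPM per kb.

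Levels within the family, compared per kb of exon, spanned a wide range. Trim28, Trim35 and Trim47 led in the control at 60.8 ± 2.19, 57.6 ± 0.925 and 57.4 ± 3.36 CPM per kb, and their order is not resolved by that spread. Trim44, at 30.2 ± 1.62, came next, followed by Trim8 at 26.4 ± 0.488 and Trim32 at 21.3 ± 1.18. In the knockout cultures Trim28, Trim35 and Trim30a were at 56.4 ± 2.23, 53.3 ± 1.66 and 52.8 ± 3.42 CPM per kb, again within their spread of each other. Trim47, at 49.0 ± 5.81, was within that spread too. By mean, Trim8 moved from the fifth to the tenth place and Trim30d from the tenth to the sixth. Their places in the knockout cultures are not resolved. Trim8 was at 18.4 ± 2.51 beside Trim12c at 17.9 ± 1.43, and Trim30d at 36.7 ± 2.63 beside Trim44 at 37.25 ± 1.75 CPM per kb.

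Among 3 family members with other symbols, Pml, the organiser of nuclear bodies, rose, with 92.2 ± 1.94 CPM in the control and 159 ± 4.42 CPM in the knockout cultures (adjusted p = 3.9e-10). Mid2, a microtubule-binding relative of Trim9, fell from 39.6 ± 3.59 to 31.8 ± 2.64 CPM (adjusted p = 0.0034). Mid1 was at 11.3 ± 0.402 and 11.8 ± 0.598 CPM. Of 13 genes of the ubiquitin-conjugating enzyme family, 2 rose and 0 fell, beside 19.6% and 18.7% of all genes tested. They were Ube2l6, the enzyme for the ubiquitin-like ISG15, from 87.2 ± 2.32 to 222 ± 3.31 CPM, and Ube2e1, from 28.6 ± 1.56 to 33.5 ± 1.64 CPM. Of 9 corepressor partners of TRIM28, 2 rose, near the 19.6% of all genes tested, and 0 fell, beside 18.7%. Atf7ip rose from 72.9 ± 7.09 to 102 ± 0.980 CPM and Chd4 from 360.2 ± 11.5 to 398 ± 7.97 CPM.

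Of 22 interferon-stimulated genes, a list chosen with earlier results of these data known, 22 rose, beside 19.6% of all genes tested. Their direction is therefore no independent evidence. Their median log2 fold change was 1.31. The 4 with the smallest p, all antiviral effectors, were Ifit2 (2.10), Mx1 (2.44), Rsad2 (1.77) and Ifit1 (1.51). Of 13 signalling partners of TRIM proteins in innate sensing, a list chosen in the same way, 8 rose and 2 fell, beside 19.6% and 18.7% of all genes tested. The IKK subunit gene Ikbkg rose from 72.5 ± 5.01 to 104 ± 1.00 CPM, Ikbke, the kinase activated through Trim6, from 21.7 ± 1.81 to 32.2 ± 1.12 CPM, and Mb21d1, the DNA sensor cGAS, from 3.36 ± 0.538 to 7.48 ± 0.850 CPM. The 2 that fell were Mavs, from 36.2 ± 2.43 to 31.4 ± 0.963 CPM, and Irf3, from 27.0 ± 2.17 to 20.9 ± 1.80 CPM.

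Markers of other cells are given here beside the shares over all genes tested, of which 19.6% rose and 18.7% fell. The 10 microglia and macrophage markers summed to 55.9 to 57.1 CPM in the control and 27.4 to 30.1 CPM in the knockout libraries, with 8 lower and 1, Tmem119, higher. The 6 fibroblast and meningeal markers, 6 of which rose, summed to 2989 to 3178 and 4643 to 5258 CPM. The 5 endothelial markers summed to 39.1 to 42.3 and 69.5 to 72.5 CPM, and 2 of 4 tested rose. Most of that sum was Cdh5, at 26.8 ± 0.439 CPM in the control and 53.4 ± 1.93 CPM in the knockout cultures. Kdr rose from 11.8 ± 1.65 to 14.8 ± 1.26 CPM. Pecam1 (1.06 and 1.40 CPM) and Tek (1.06 and 1.54 CPM) were not called, and Cldn5 (0.0876 and 0.0462 CPM) was not tested. Of the oligodendrocyte-lineage markers 1 of 6 tested rose and 3 fell, and of 6 neuronal markers 0 rose and 2 fell. With so few genes, these counts are not set apart from the 19.6% and 18.7% of all genes. The number of markers at 0 in all libraries was 0 in each of these lists. Their part in the differences of the TRIM genes was not tested.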

How the data were processed

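Per the labels' protocols, Trizol was used for extraction and poly-T beads for library preparation. Per the submitters' processing notes, the tools were HISAT2 2.2.1 and featureCounts 2.0.6 and the build GRCm38. The deposited values are raw counts per gene made by the authors. Annotation release, strandedness and the handling of multiply mapped reads were not given in the sources used here, so antisense neighbours and near-identical copies may share reads. Columns were matched to libraries by name.

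Genes were filtered with filterByExpr (minimum count 10, minimum total 15) and fitted in edgeR 4.0.16 (R 4.3.3) with TMM, robust glmQLFit and glmQLFTest on genotype, two-sided, Benjamini-Hochberg over all 18530 genes, threshold 0.05. Standard errors came from the test statistic, and intervals are 95%. The scripts were tested on simulated data. Coordinates and exon lengths came from GENCODE M21, near-identical copies from BLAST 2.17.0 (95% identity over 100 bases), and promoter windows from RefSeq. Libraries within a group differed by more than sampling noise. The members, classes and lists were chosen with earlier results of these data known. Values per library are given for called members with a log2 fold change of at least 0.5 in size, the called member with the smallest p in each class and the most abundant member. From the other lists, up to 4 called genes with the smallest p are named. Cell markers, the values per library of Trim56 and the genes Gm15133, Gm16464, Gm45471, Nans, Mid1, Mavs and Irf3 were named outside this rule. One gene of the family is not reported here. Alternatives were median-of-ratios and total-count scaling, DESeq2 1.42.0, limma-voom (limma 3.58.1), no filter, 1 CPM in 3 libraries, a replicate block, a threshold of 0.01 and leaving out each library. Summing near-identical copies was added after seeing the data.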

Additional observations from a re-analysis of the deposited data

How the results depend on the processing

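Each of the 28 called members kept its direction under each alternative in which it was tested. DESeq2, limma-voom and median-of-ratios scaling lost 0 of the 28 calls. The number called higher was 18, and 15 to 18 when each library was left out in turn. The number called lower was 10, and was 4 to 9 when each library was left out (4 without control replicate 1, 6 without control replicate 2 and 6 without knockout replicate 2), 4 at a threshold of 0.01 and 12 under total-count scaling. The chromosome 7 cluster kept 10 of 10 calls, except that Trim34b was lost at a threshold of 0.01 and without control replicate 1, control replicate 2 or knockout replicate 1, and that Trim30b and Trim34b were not tested under the filter of 1 CPM in 3 libraries.

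The median log2 fold change of the tested members was 0.042, beside −0.0018 over all genes. It was −0.023 under total-count scaling, which also moved the median of all genes, to −0.067. It was 0.17 under limma-voom, 0.082 with a replicate block, and 0.037 to 0.15 when each library was left out. The cause was not tested.

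Whether the replicate numbers pair the libraries was not resolved, since all correlations were small. Deviations of same-numbered libraries correlated at −0.0082 to 0.019 over 18530 genes, and those of other pairs at −0.022 to 0.013. Control libraries 1 and 2 correlated best with their own number, and control library 3 did not. With the replicate block 17 members were higher and 9 lower, and the calls of Trim65 and Trim35 were lost (adjusted p = 0.064 and 0.058). Of the 25 uncalled members, Trim28 and Trim37 passed under total-count scaling. Members under about 1 CPM are limited by depth.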
